A study of Mus musculus with 4 samples.

Results

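The nuclear genome encodes most subunits of the 5 enzyme complexes of mitochondrial oxidative phosphorylation, and 79 of these genes are described here across the immune cells of mouse liver. They were chosen by symbol and by count: Nduf genes (complex I), Sdha to Sdhd (complex II), Uqcr genes (complex III), Cox4 to Cox8 genes (complex IV) and Atp5 genes (complex V, ATP synthase), without pseudogenes and with at least 100 unique molecular identifiers (UMIs) over all cells of 4 libraries. Of 32285 genes in the count matrices, 84 matched the symbols and 79 reached 100 UMIs. Just inside the limit were Cox7a1 with 380 UMIs and Cox6b2 with 1008. Outside it were Cox4i2 with 59, Ndufa4l2 with 8, Cox8b with 6, Cox7b2 with 2 and Cox8c with 0. Since total counts chose the members, their totals are a description only.

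Complexes I to IV pass electrons from NADH and succinate to oxygen, complexes I, III and IV pump protons out of the mitochondrial matrix as they do so, and ATP synthase uses the proton gradient to make ATP. The core subunits of complexes I, III, IV and V come partly from mitochondrial DNA, while complex II is wholly nuclear-encoded, so the nuclear and mitochondrial transcripts of a cell serve the same enzymes. Resting naive lymphocytes rely largely on oxidative phosphorylation at a low rate, and dividing lymphocytes make new mitochondria together with new cytoplasm.

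CD45+ cells were sorted from the livers of female C57BL/6 mice and profiled by 10x Genomics 5′ single-cell RNA sequencing, with 1 library for each of 4 groups. The study asks how loss of miR-146a, and of Ccl5 together with it, changes liver cancer and the immune cells of the liver. The young WT group was about 8 weeks old and untreated. Mice of the other groups were 36 weeks old by their labels, had been injected with the liver carcinogen diethylnitrosamine (DEN, 25 mg per kg) at 14 days of age, and ate a choline-deficient diet rich in fat (CDHFD, 60% fat) from weaning at 21 days. Those groups were WT, miR146-/- and miR146-/- Ccl5-/- (double knockout, DKO). How many mice were pooled in a library is not stated. Wherever 4 values follow each other, they are in the order young WT, treated WT, miR146-/- and DKO.

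The matrices held 10985, 9120, 8393 and 10623 cells, of which 10283, 8329, 7824 and 9850 had 600 to 6000 detected genes and at most 5% mitochondrial UMIs. Kept cells carried 83882711, 84158257, 79464882 and 96747482 UMIs, with medians of 6782, 8210, 7910 and 7558 per cell. Doublets were limited by the upper bound on detected genes and by the gates, and no doublet caller was run. Any 2 libraries shared 109 to 150 cell barcodes, 1.26 to 1.64% of the smaller library. Kept cells were sorted into 17 classes by UMIs of marker genes; dividing cells of any lineage, with at least 3 UMIs of Mki67, Top2a, Birc5, Ccna2 and Ube2c, formed a class of their own named Cycling. In all, 5980, 5125, 5578 and 6653 cells fell in 1 class (58.2, 61.5, 71.3 and 67.5% of kept cells). Cells in no class (4218, 3113, 2160 and 3078) or in several (85, 91, 86 and 119) enter no class value. No gate used a member. Of 51 marker genes outside the gates, 39 had their highest level in the class they mark and 50 were above the median of the other classes; the exception was Cd7 in type 2 conventional dendritic cells (cDC2).

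Ccl5 served as the check of the deletion, since miR-146a itself is not among the features. In CD8 T cells with a Pdcd1 UMI (CD8 PD-1+), Ccl5 made up 1.94, 4.45, 3.95 and 0.0234% of all UMIs, and in NK cells 2.04, 1.49, 2.28 and 0.0102%. The DKO library was the low one in both, which fits its label. In B cells, which make little of it, Ccl5 stood at 0.0324, 0.0335, 0.0119 and 0.00143%, a level at which free RNA and expression cannot be told apart.

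With 1 library a group there is no replicate check, and no test between groups was possible. Values are sums over the cells of a class and library, as percent of all UMIs or as counts per 1000000 UMIs (CPM), and 95% intervals (exact binomial or Poisson) cover counting error only. A ratio between libraries is given as log2, and a gene is called higher or lower when it passes 1.3-fold (at least 50 CPM and 20 UMIs in 1 of both libraries). The treated WT library differs from the young one in age, DEN and diet, which cannot be told apart. Across classes, 11 of the 17 had at least 50 cells in every library and carry the comparisons.

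A single library, treated WT, stands apart for very short transcripts. Over the 11 classes together, the ribosomal protein gene Rpl38 stood at 1497, 880, 1327 and 1269 CPM, Rps29 at 1699, 977, 1564 and 1493 CPM, and mitochondrial mt-Atp8 at 371, 120, 201 and 189 CPM (genes picked after their values were seen). All are low in the treated WT library, and so is Atp5k, the member with the shortest annotated transcript, at 82.3, 57.3, 90.04 and 83.4 CPM. Both comparisons that use treated WT are therefore given with and without members whose median annotated transcript is under 600 bases (29 of 79), and young WT and DKO are set side by side as a pair without that library. A second split, in genes chosen after values were seen, separates the libraries in pairs. A list of 22 genes that respond to cell handling (Fos, Jun, heat-shock genes and others) made up 1.99, 1.95, 0.910 and 1.02% of the UMIs of NK cells and 1.48, 1.12, 0.729 and 0.913% of those of CD8 PD-1+ cells. Both libraries from miR-146a-deficient mice were low, and Fos, the most abundant of the 3 such genes read singly, stood at 1129.8, 895, 327 and 502 CPM over the 11 classes.

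The 79 members held 6325496 of 344253332 UMIs of kept cells, or 1.84%, and 1.70, 1.82, 1.89 and 1.94% by library. Complex V contributed 34.0% of member UMIs from 17 genes, complex I 28.4% from 36, complex IV 25.9% from 14, complex III 9.57% from 8 and complex II 2.13% from 4. Since the assay counts the 5′ end of each molecule once, CPM values do not scale with transcript length and levels can be set beside each other as molecules, apart from the short transcripts just described. The median member stood at 173 CPM.

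Within complex I, which takes electrons from NADH, the level was highest for Ndufa4 (368 CPM; its product is also found with complex IV) and lowest for Ndufs1 (35.5 CPM), an iron-sulfur subunit of the catalytic core. In complex II, the iron-sulfur subunit Sdhb stood at 161 CPM and the membrane anchor Sdhc at 49.9 CPM. Complex III ranged from 537 CPM for its small hinge subunit Uqcrh to 121 CPM for the core protein Uqcrc2. In complex IV, Cox8a, the smallest structural subunit, had 843 CPM, and Cox7a1, an isoform of heart and skeletal muscle, 0.877 CPM. ATP synthase ranged from 695 CPM for its epsilon subunit Atp5e to 77.2 CPM for Atp5k, subunit e of the membrane part. As a share of UMIs by library, complex I made up 0.482, 0.514, 0.540 and 0.551%, and complex V 0.587, 0.627, 0.635 and 0.644%. Complex III rose in the same order with 0.159, 0.166, 0.182 and 0.193%, as did complex IV with 0.430, 0.468, 0.494 and 0.508%. Complex II was lowest in young WT and nearly level in the others (0.0367, 0.0403, 0.0395 and 0.0397%). These shares mix classes in different proportions, so the levels within classes follow.

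Cycling cells had the highest summed level of the 11 classes in every library, 2.11, 2.05, 2.17 and 2.19% of UMIs. B cells had the lowest, 1.305, 1.39, 1.43 and 1.36%. The ratio of the class medians was 1.55, and the ranges of both classes over the libraries were far apart. Between them, classical monocytes (Ly6c2 and Ccr2 positive) had 1.90, 1.89, 1.998 and 2.09%, which reaches into the range of Cycling cells. NK cells followed with 1.82, 1.84, 1.97 and 2.05% and CD8 PD-1+ cells with 1.77, 1.88, 1.95 and 2.02%; these neighbours do not differ beyond their spread. Type 1 conventional dendritic cells (cDC1) spread widest, with 1.72, 1.80, 2.09 and 2.01%.

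Lower in the order, ILC1 had 1.76, 1.80, 1.92 and 1.93%, CD4 conventional T cells 1.72, 1.80, 1.83 and 1.86%, and CD8 T cells without Pdcd1 and without naive genes 1.73, 1.79, 1.82 and 1.92%. CD8 naive-like cells (1.62, 1.71, 1.77 and 1.77%) and patrolling monocytes (1.67, 1.58, 1.73 and 1.80%) stood just above B cells. The ranges of these 5 overlapped each other, and all lay above every B cell value. Among classes with fewer cells, plasmacytoid dendritic cells (pDC) reached 1.97, 1.96, 2.22 and 2.23%, while neutrophils, with 15 to 26 cells a library, had 0.760, 1.22, 0.815 and 1.27%. With mitochondrial, cytosolic ribosomal protein and Ccl5 genes taken out of the denominator, Cycling cells were highest and B cells lowest in 3 of the 4 libraries each. Depth differed between these classes, with medians of 18397.5, 17456.5, 18955 and 18515 UMIs per Cycling cell and 5632, 6695, 7132 and 6649.5 per B cell. After thinning cells to 2000 UMIs before gating, Cycling cells were highest in 3 of the 4 libraries and B cells lowest in 4. When dividing cells were kept in their lineage instead, CD8 PD-1+ cells were the highest class by median.

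**Figure D1:**
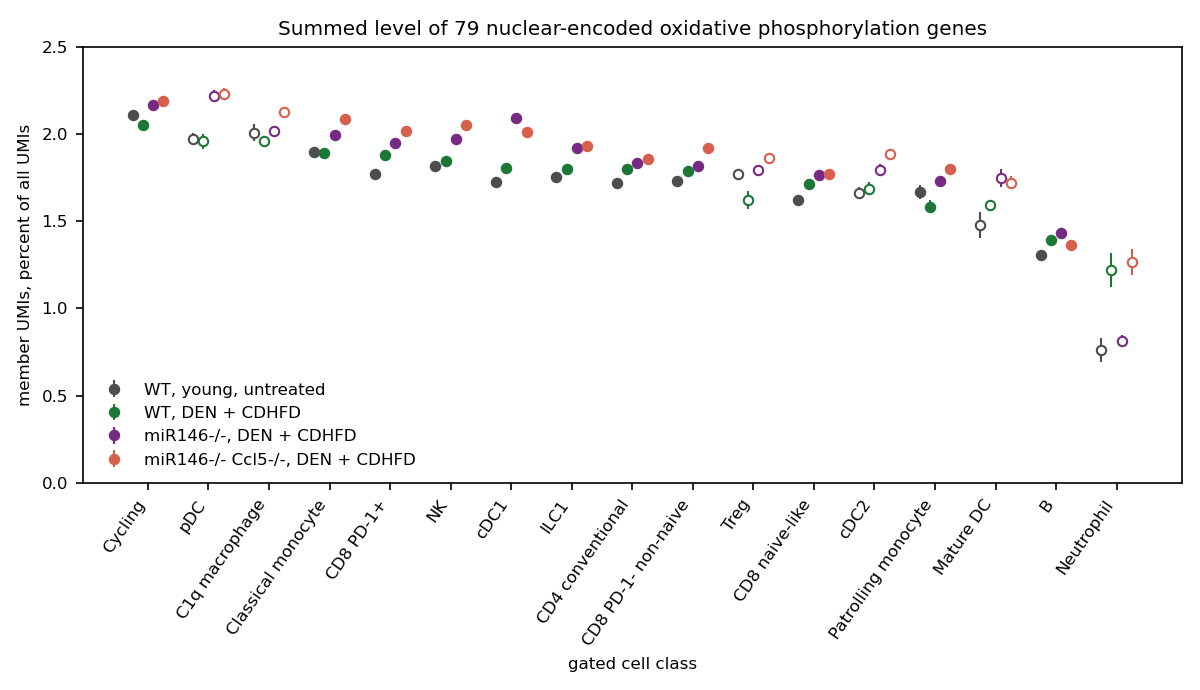
Percent of all UMIs that belong to the 79 genes (vertical axis) by gated class (horizontal axis, ordered by median) and library (colour), with 95% counting intervals; open circles are classes with fewer than 50 cells in a library. B cells lie below the other 10 classes drawn with filled circles, and Cycling cells lie at 2.05 to 2.19%.

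Of the 74 members with at least 50 CPM, 52 were lowest in B cells among the 11 classes and 25 highest in Cycling cells. Of all 3515 genes at that level, 18.5% were lowest in B cells and 12.1% highest in Cycling cells. The ratio of highest to lowest class had a median of 1.83, from 1.34 for Sdha, the flavoprotein of complex II, to 2.66 for Uqcrb. Uqcrb, which binds ubiquinone with cytochrome b in complex III, reached 396, 356, 403 and 394 CPM in cDC1. In B cells it stood at 144, 135, 162 and 152 CPM, below cDC1 in every library. A further complex III subunit, Uqcrq, was highest in classical monocytes, at 274, 304, 365 and 381 CPM, and in B cells it was at 121, 119.6, 181 and 187 CPM. Both classes rose together in the libraries from deficient mice, and monocytes stayed above B cells.

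Ndufa12, an accessory subunit of complex I, reached 109, 107, 111 and 107 CPM in Cycling cells. In patrolling monocytes it had 46.7, 34.8, 34.0 and 45.8 CPM, the lowest of the 11 classes once the libraries were pooled. Ndufb8, of the complex I membrane arm, stood at 205, 235, 222 and 240.5 CPM in classical monocytes. Its B cell values of 98.4, 105, 100.1 and 102 CPM hardly varied among the libraries. Uqcr11, the smallest subunit of complex III, had 159, 154, 180.1 and 196 CPM in classical monocytes and 76.7, 67.9, 91.6 and 88.0 CPM in B cells. B cells were below monocytes in each library for both genes.

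**Figure D2:**
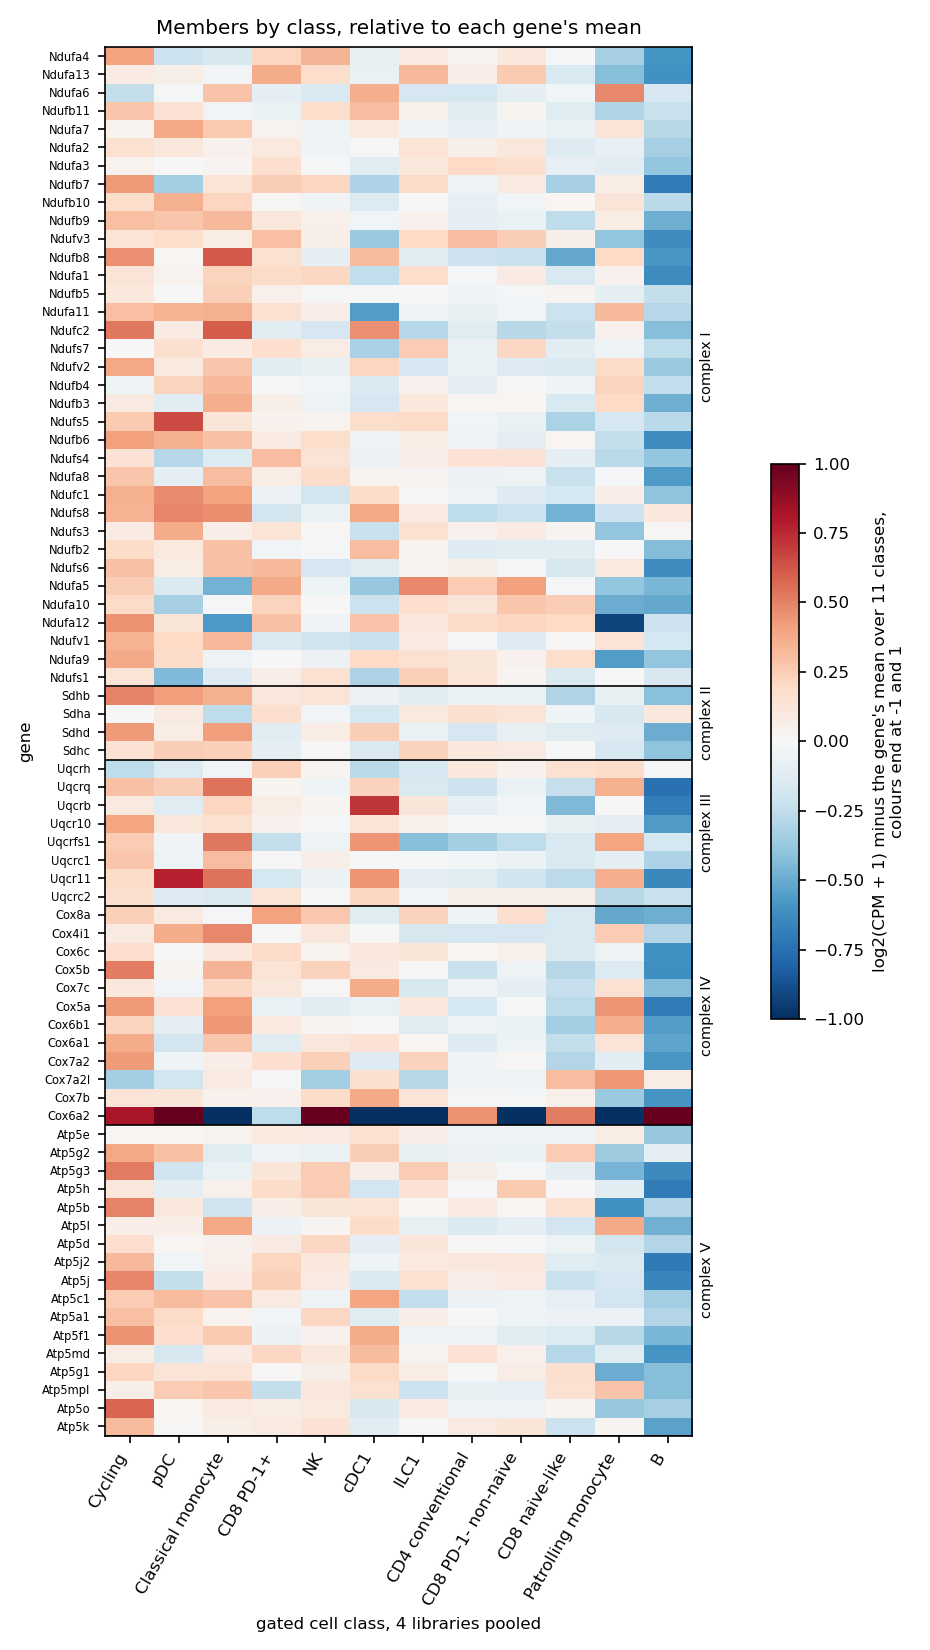
Level of 76 members by class, as log2(CPM + 1) minus the gene's mean over 11 classes (colour), 4 libraries pooled and grouped by complex; 3 members are not drawn, among them Cox6b2 and Cox7a1, under 3 CPM. The B column is mostly blue and the Cycling column mostly red, while Uqcrh, Cox7a2l and Ndufa6 run the other way in Cycling cells.

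Mitochondrial DNA encodes 13 further subunits of complexes I, III, IV and V. Their summed level was 1.35, 1.51, 1.71 and 1.41% in B cells and 0.966, 0.997, 0.9499 and 0.881% in Cycling cells. So B cells were above Cycling cells for the mitochondrial transcripts and below them for the nuclear members, in all 4 libraries. Other mitochondrial lists were divided. The 78 mitochondrial ribosomal protein genes made up 0.355, 0.381, 0.381 and 0.362% in B cells and 0.522, 0.519, 0.522 and 0.536% in Cycling cells. For 13 tricarboxylic acid cycle genes the values were 0.0881, 0.0920, 0.0938 and 0.0845% in B cells and 0.122, 0.119, 0.120 and 0.122% in Cycling cells, so both lists were lower in B cells, like the nuclear members. The 13 coenzyme Q genes went the other way, with 0.0300, 0.0312, 0.0262 and 0.0258% in B cells and 0.0252, 0.0269, 0.02298 and 0.0230% in Cycling cells. The 16 regulators of mitochondrial biogenesis were higher in B cells in 3 of the 4 libraries (0.0559, 0.0562, 0.0467 and 0.0444%, against 0.0472, 0.0481, 0.0454 and 0.0447%). Glycolysis, with 13 genes, was highest in classical monocytes of the 11 classes (0.531, 0.584, 0.729 and 0.725%) and low in B cells (0.236, 0.274, 0.291 and 0.274%).

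Cell states were compared within each library, where genotype and treatment are the same; since Cycling holds dividing cells of any lineage, its ratio mixes lineage with state. CD8 PD-1+ cells had more member UMIs than CD8 naive-like cells, by a log2 ratio of 0.13, 0.13, 0.14 and 0.19. Of 74 members tested, 4 were higher by more than 1.3-fold in each of the 4 libraries (16.2% of 3126 genes), namely Ndufb7, Ndufb8, Ndufa13 and Atp5md, and 0 were lower (6.72% of genes). The median member ratio was 0.12 against 0.21 over all genes tested, so members rose by less than the typical gene in this comparison. Cycling cells over CD8 PD-1+ cells gave 0.25, 0.12, 0.15 and 0.12 for the summed level. Here 9 of 75 members were higher (19.4% of 3531 genes) and 0 lower (14.6%), with a median of 0.19 against -0.00 for all genes. Those 9 were Ndufc2, Ndufs8, Ndufv1 and Ndufv2 of complex I, the Rieske iron-sulfur protein Uqcrfs1, Cox5a and Cox6a1 of complex IV, and Atp5f1 and Atp5o of the ATP synthase stalk. Patrolling over classical monocytes ran down, with -0.19, -0.26, -0.21 and -0.21. In that pair 0 of 73 members were higher (11.6% of 3070 genes) and 4 were lower (5.99%), which were Sdhd, Ndufa10, Cox8a and Cox5b, and the median was -0.22 against 0.06.

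Several subunits exist as isoforms from separate genes, and the balance of isoforms differed between classes more than between libraries. Atp5g1, Atp5g2 and Atp5g3 encode the same mature c subunit, which forms the rotor ring of ATP synthase. Atp5g3 stood at 329, 372, 334 and 329 CPM in B cells and at 561, 657, 631 and 698 CPM in NK cells. For Atp5g2 the values were 504, 581, 533 and 520 CPM in B cells and 461, 602, 541 and 596 CPM in NK cells. B cells thus were low in Atp5g3 and close to NK cells in Atp5g2. As a share of both genes' UMIs, Atp5g2 made up 60.5, 61.0, 61.5 and 61.2% in B cells and 45.1, 47.8, 46.2 and 46.1% in NK cells. CD8 naive-like cells were near B cells (58.1, 57.2, 57.9 and 57.8%), and CD8 PD-1+ cells were at 50.02, 44.9, 50.3 and 50.7%. The third gene, Atp5g1, taken as a share of Atp5g1 and Atp5g3, was at 33.5, 32.2, 34.0 and 34.1% in B cells and 29.3, 28.1, 26.8 and 25.4% in NK cells.

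Cox7a2 is a subunit of complex IV, and its relative Cox7a2l helps join complexes III and IV into supercomplexes. Cox7a2 stood at 178, 169, 173 and 174 CPM in B cells and at 345, 344, 360.3 and 353 CPM in Cycling cells. Cox7a2l went the other way, with 255, 305, 266 and 270.1 CPM in B cells and 209.6, 201, 189 and 212 CPM in Cycling cells. The Cox7a2l share of both genes was 58.9, 64.3, 60.5 and 60.8% in B cells, 61.9, 59.9, 56.4 and 59.8% in CD8 naive-like cells, 37.8, 40.0, 40.8 and 40.9% in NK cells and 37.8, 36.9, 34.4 and 37.5% in Cycling cells. No library's B or naive-like value came near any NK or Cycling value. Cox6b2, an isoform known from testis, and Cox7a1 stayed at a few CPM in these classes, for instance 4.71, 4.54, 6.31 and 4.38 CPM of Cox6b2 in Cycling cells.

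The promoters of both pairs are shown so that the differing isoforms can be compared at their starts. Each window runs from 250 bases before to 50 bases after the RefSeq start (GRCm38.p6, all on the minus strand): Atp5g2 at chr15:102670998-102671297, Atp5g3 at chr2:73911277-73911576, Cox7a2 at chr9:79759804-79760103 and Cox7a2l at chr17:83514284-83514583. Capitals mark letters of NRF1 (CGCANGCG), an ETS site (CCGGAAG), YY1 (AAGATGGCG) or an ERR element (AAGGTCA) on either strand. Both ATP synthase windows hold an NRF1 match, and Atp5g3 also an ERR element; the Cox7a2 and Cox7a2l windows hold none of the 4.
Atp5g2: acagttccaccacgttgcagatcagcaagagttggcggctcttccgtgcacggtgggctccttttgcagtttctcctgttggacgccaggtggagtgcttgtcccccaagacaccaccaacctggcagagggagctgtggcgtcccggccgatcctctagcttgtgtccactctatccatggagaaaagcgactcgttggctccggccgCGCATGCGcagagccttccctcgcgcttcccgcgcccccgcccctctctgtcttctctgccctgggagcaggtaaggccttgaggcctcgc
Atp5g3: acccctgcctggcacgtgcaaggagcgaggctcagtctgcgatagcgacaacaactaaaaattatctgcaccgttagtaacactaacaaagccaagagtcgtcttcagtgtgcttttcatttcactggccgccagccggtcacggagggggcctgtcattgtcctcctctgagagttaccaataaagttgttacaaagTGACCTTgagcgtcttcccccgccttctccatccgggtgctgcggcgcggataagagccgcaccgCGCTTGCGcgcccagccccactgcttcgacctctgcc
Cox7a2: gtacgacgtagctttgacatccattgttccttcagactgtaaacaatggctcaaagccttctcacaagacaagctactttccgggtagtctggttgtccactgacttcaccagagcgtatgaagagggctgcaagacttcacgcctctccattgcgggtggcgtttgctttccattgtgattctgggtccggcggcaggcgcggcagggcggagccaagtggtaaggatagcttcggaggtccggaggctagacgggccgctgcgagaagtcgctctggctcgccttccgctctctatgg
Cox7a2l: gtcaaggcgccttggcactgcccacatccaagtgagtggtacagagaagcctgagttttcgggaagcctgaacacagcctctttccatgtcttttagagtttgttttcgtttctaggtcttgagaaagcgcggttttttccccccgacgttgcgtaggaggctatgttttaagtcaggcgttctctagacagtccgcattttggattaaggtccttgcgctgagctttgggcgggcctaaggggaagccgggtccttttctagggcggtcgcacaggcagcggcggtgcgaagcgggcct
The promoter table held 66 of the 79 members, and among the missing are Ndufa2, Ndufb9, Ndufs1, Sdhc, Uqcrb, Uqcrc2, Uqcrq, Cox4i1, Cox6a2, Cox6c, Atp5a1 and Atp5mpl. An NRF1 match was in 26 of 66 members (39.4%, 95% interval 27.6 to 52.2%) and in 9.22% of all 27025 genes of the table. The ETS letters were in 17 (25.8%, against 9.93%), YY1 in 7 (10.6%, against 1.64%) and the ERR element in 8 (12.1%, against 5.38%). Among general promoter letters, CCAAT was in 43.9% of members against 41.1% and GGGCGG in 40.9% against 38.2%, both close to the background, and TATAAA was in 9.09% against 15.7%. NRF1 or ETS letters were in 35 members (53.0%, against 17.3%), both in 8, and no ETS match overlapped a YY1 match. A match is a description, not a site or a cause.

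**Figure D3:**
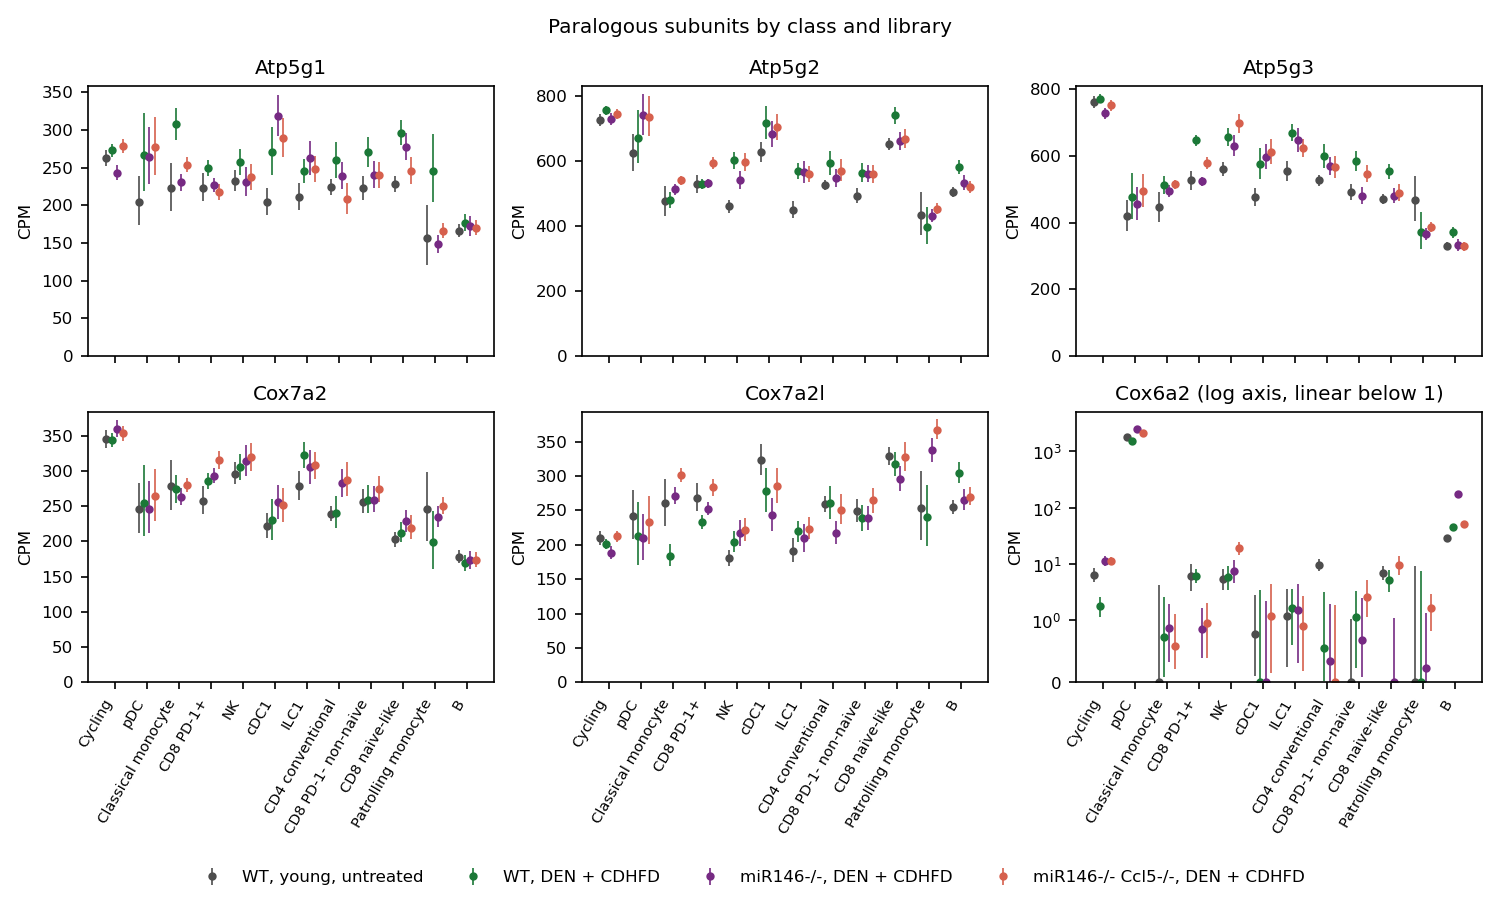
CPM of 6 isoform genes (vertical axes, from 0; Cox6a2 on a log axis that is linear below 1) by class (horizontal axes) and library (colour), with 95% counting intervals. Atp5g3 and Cox7a2 are lowest in B cells, Cox7a2l is lower in Cycling cells than in B cells, and Cox6a2 exceeds 1000 CPM in pDC.

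Cox6a2, the heart and muscle isoform of Cox6a1, was found mostly in cells with Siglech, the defining gene of the pDC gate. In pDC it stood at 1777, 1511, 2481 and 2168 CPM, beside 240.2, 296, 288 and 290.3 CPM of Cox6a1, so that it made up 88.1, 83.6, 89.6 and 88.2% of both. The treated miR146-/- and DKO libraries were above the WT ones. Cox6a2 was detected in 61 of 67, 32 of 33, 53 of 60 and 56 of 59 gated pDC (91.0, 97.0, 88.3 and 94.9%). Cells with at least 2 UMIs of Siglech held 97.4, 95.5, 98.3 and 94.8% of all Cox6a2 UMIs, whatever their class. Those cells numbered 177, 115, 164 and 159, of which 67, 33, 60 and 59 were in the pDC gate. Gated pDC held 1339 of 3827, 612 of 2165, 1802 of 5367 and 1643 of 4329 Cox6a2 UMIs, and most others lay in Siglech-positive cells outside that gate. In cells without Siglech the level was 1.24, 1.18, 1.19 and 2.36 CPM, at which free RNA and undetected pDC cannot be told apart.

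B cells had a second, smaller Cox6a2 value, nearly all of it in cells that also carried Siglech. It was 28.8, 45.4, 171 and 50.9 CPM, highest in miR146-/-, which gave log2 ratios of 1.91 (95% interval 1.70 to 2.13) for miR146-/- over treated WT and -1.75 for DKO over miR146-/-. Of the 248, 246, 701 and 316 UMIs, 240, 240, 700 and 297 lay in the 14, 10, 21 and 13 B-gated cells with Siglech. B-gated cells without Siglech had 0.946, 1.14, 0.265 and 3.15 CPM, with miR146-/- lowest. The summed level of a list of 6 pDC markers moved the same way in B cells, with 0.0393, 0.0475, 0.0927 and 0.0462%. Its most abundant genes were Bst2 (134, 133, 328 and 160 CPM) and Tcf4 (168, 200, 319 and 196 CPM), and none was at 0. Siglech and Pacsin1 reached 50 CPM only in miR146-/-, so their calls are not counted. Klk1 did not rise over treated WT, with 13.5, 44.8, 44.0 and 14.3 CPM. Without Siglech-positive cells the summed member level of B cells was 1.29, 1.38, 1.38 and 1.35%.

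Treated WT over young WT asks what age, DEN and diet do together to the same genotype. Over the 11 classes, the summed level changed by a median log2 ratio of 0.05, from -0.07 in patrolling monocytes to 0.09 in B cells, and was above 0 in 8 classes. With members of at least 600 bases only, the median was 0.09 and 9 classes were above 0. By complex the medians were 0.05 for I, 0.07 for II, 0.03 for III, 0.05 for IV and 0.07 for V. In CD8 PD-1+ cells 3 of 74 members were higher (11.8% of all genes tested) and 2 lower (13.9%), with a median of 0.08 against -0.02 for all genes. NK cells had 1 of 74 higher (5.53%) and 2 lower (5.95%), B cells 1 of 72 higher (4.74%) and 1 lower (3.51%), and classical monocytes 3 of 75 higher (12.1%) and 3 lower (14.6%). In all 4 classes together 8 were higher and 8 lower of 295, beside 8.63% of all gene values higher and 9.65% lower. The member counts became 15 and 7 with TMM scaling. With members of at least 600 bases only, 5 were higher and 1 lower of 188, beside 8.50 and 8.96% of all genes of that length.

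In lymphocytes the largest falls of this comparison came mostly from short ATP synthase and complex I genes. In NK cells Atp5k had 95.5, 52.5, 90.9 and 94.9 CPM, a log2 ratio of -0.86 (-1.13 to -0.61). Ndufa3 had 211, 162, 217 and 229 CPM (-0.38) and Ndufa1 182, 142, 197 and 206 CPM (-0.36) in the same cells; both are small membrane subunits of complex I. In CD8 PD-1+ cells Atp5mpl, a small subunit of the ATP synthase membrane part, had 199.97, 129, 185 and 198 CPM (-0.64), Atp5k fell by -0.46 and Uqcr11 by -0.21. Each of these genes was lowest in treated WT and near or above the young value in both other treated libraries. Uqcr11 stood at 104, 90.2, 119 and 126 CPM, and the interval of its fall spans 0. B cells ranked Atp5k (-0.52), Ndufa3 (-0.33) and Atp5mpl (-0.30) lowest. Monocytes differed in part, with Ndufa5 at 83.3, 56.1, 58.4 and 61.0 CPM (-0.58), low in all treated libraries, ahead of Cox7a2l (-0.50) and Atp5mpl (-0.39). Cox7a2l, with a median transcript of 1102.5 bases, is not among the short members.

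The largest rises had less in common. Ndufb8 in CD8 PD-1+ cells stood at 129, 196, 164 and 156 CPM, a log2 ratio of 0.60 (0.43 to 0.78), highest in treated WT and above young WT in every treated library. Ndufa8, which stabilises complex I from the intermembrane space, had 85.4, 113, 105 and 109 CPM there (0.40) and 56.6, 79.9, 71.6 and 71.5 CPM in B cells (0.50), again with all treated libraries high. Ndufs6 in CD8 PD-1+ cells had 76.3, 103.7, 120.2 and 105 CPM (0.44). In NK cells the 3 highest were Atp5g2 (0.39), the anchor Sdhd (0.32) and Ndufs3 (0.30). In B cells Ndufb5 (0.32) and Ndufb11 (0.26) followed Ndufa8, and in classical monocytes the order was Ndufb6 (93.6, 139, 126 and 134 CPM; 0.56), Atp5g1 (0.46) and Ndufa9 (0.43, with an interval that spans 0).

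miR146-/- over treated WT compares genotypes at equal age and treatment. The summed level was higher in 11 of 11 classes, by a median log2 ratio of 0.08 and from 0.02 in CD8 PD-1- non-naive cells to 0.21 in cDC1. With members of at least 600 bases only, the median was 0.03 and 6 of 11 classes were above 0. The count of classes was 9 of 11 after thinning cells to 2000 UMIs and 9 of 10 with dividing cells kept in their lineage. The B cell ratio was 0.04, and in B cells without Siglech the levels were 1.378% in treated WT and 1.379% in miR146-/-. By complex the median ratio of the summed level was 0.08 for I, -0.01 for II, 0.11 for III, 0.07 for IV and 0.06 for V. The complex III sum includes Uqcrq, described below. Its median member stood at -0.02 in CD8 PD-1+ cells, 0.09 in NK cells, 0.13 in B cells and 0.08 in classical monocytes. CD8 PD-1+ cells had 5 of 74 members higher (7.24% of genes) and 0 lower (7.03%). NK cells had 7 of 75 higher (5.55%) and 0 lower (8.95%), B cells 5 of 74 higher (7.29%) and 0 lower (7.04%), and classical monocytes 4 of 75 higher (12.2%) and 2 lower (15.2%). More calls were up than down in each of the 4 classes. In the 4 classes together 21 of 298 were higher and 2 lower, beside 8.06% of all gene values higher and 9.55% lower. With members of at least 600 bases only, 4 of 190 were higher and 2 lower, beside 7.08 and 9.45% of all genes of that length.

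Several of the largest rises were of genes that were low in treated WT. Others were Cox6a2 in B cells (1.91, described above) and Uqcrq, which rose by 0.57 in CD8 PD-1+ cells, 0.55 in NK cells and 0.60 in B cells and is described below. Atp5k rose by 0.66 in CD8 PD-1+ cells, 0.79 in NK cells and 0.58 in B cells, and was the only member called higher in each of the 11 classes (0.380% of 1841 genes, 7 in all, among them Rpl38, Rps28, Rps29 and mt-Atp8). Atp5mpl rose by 0.53 in CD8 PD-1+ cells and Ndufa1 by 0.47 in NK cells. Cox7a2l in classical monocytes, with 260.3, 184, 271 and 301 CPM (0.56), and Ndufv3, a complex I flavoprotein subunit, with 146, 129, 180.1 and 173 CPM (0.48), were likewise lowest in treated WT. Their median transcripts have 1102.5 and 645 bases, so neither is among the members under 600 bases. Falls were small in lymphocytes. In CD8 PD-1+ cells Atp5g3 had 528, 647, 524 and 579 CPM (-0.30), Sdhb changed by -0.30 and Ndufb8 by -0.26. In B cells Ndufb11 (-0.26), Ndufb10 (-0.25) and Ndufb9 (-0.21) were lowest, and in NK cells Ndufs3 (-0.18), Ndufv1 (-0.18) and Ndufa8 (-0.16), each with an interval that spans 0. The 2 falls called in classical monocytes were Ndufa12 (65.1, 75.1, 47.8 and 48.8 CPM; -0.65) and Atp5g1 (223, 308, 231 and 254 CPM; -0.42), and Ndufc2 followed (-0.28).

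**Figure D4:**
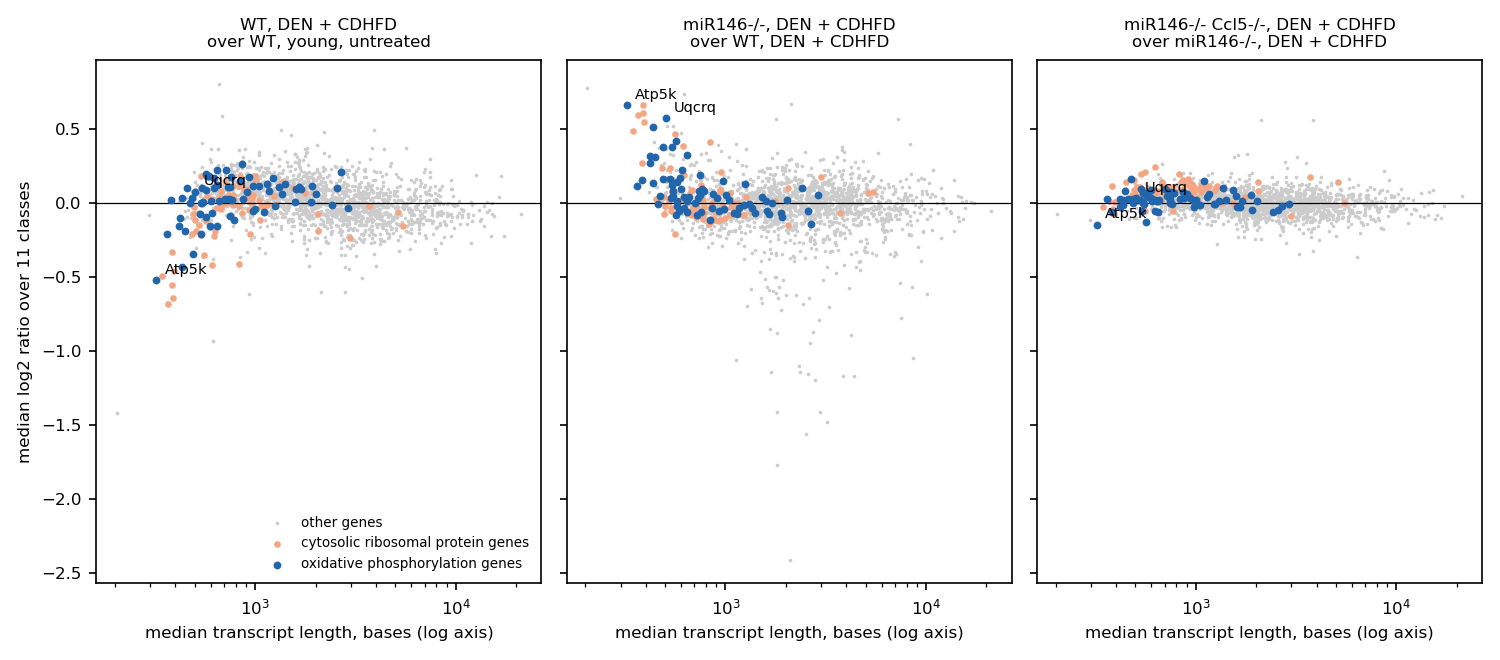
Median log2 ratio over 11 classes (vertical axis) against median annotated transcript length in bases (log axis) for 3 comparisons; points are genes tested in all 11 classes, with members in blue. Short members such as Atp5k lie low in the first comparison and high in the second, and near 0 in the third.

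Length tells how far this reached through the set. In treated WT over young WT, the 3 members under 400 bases had a median ratio of -0.20, the 23 of 400 to under 600 bases 0.01, and the 23 of 600 to under 1000 bases 0.11, with 0.10 and 0.07 in the 2 longer bins. The other genes binned had -0.75 under 400 bases (2 genes), then 0.01, 0.09, 0.06 and -0.02 in the 4 longer bins, so their values did not rise with length throughout. Not every tested gene outside the set was binned. Rpl38 (-0.68), Rps29 (-0.64) and mt-Atp8 (-1.42) are all under 400 bases, more than the 2 genes of that bin. In miR146-/- over treated WT the values were 0.16 under 400 bases, 0.14 from 400 to under 600, 0.04 from 600 to under 1000, -0.03 from 1000 to under 2000 and 0.02 from 2000 bases up. The binned genes outside the set had 0.41 under 400 bases (2 genes), then 0.11, -0.02, -0.02 and -0.01 in the 4 longer bins. Rpl38 (0.59), Rps28 (0.61), Rps29 (0.66) and mt-Atp8 (0.78), all under 400 bases and not all binned, were each above 0.41. In DKO over miR146-/- the members' bins stayed between -0.06 and 0.03. The part of transcript length in the ratios was not tested beyond these bins.

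Uqcrq, with a median transcript of 504 bases, differed from the other short members. This subunit lies beside cytochrome b in complex III. Over the 11 classes it had 186, 204, 309 and 319 CPM, so that both WT libraries were low and both miR-146a-deficient libraries high. In NK cells the values were 192, 202, 296 and 311 CPM, in Cycling cells 243, 233, 377 and 379 CPM, and in CD8 naive-like cells 171, 181, 279.9 and 275 CPM. Each class had the same split, with no overlap between the 2 WT and the 2 deficient libraries. Over the 11 classes its median log2 ratio was 0.57 for miR146-/- over treated WT (0.26 to 0.69 by class) and 0.64 for DKO over young WT (0.47 to 0.79), which share no library. Between the libraries of each pair it was 0.08 for treated over young WT and 0.03 for DKO over miR146-/-. In DKO over young WT, Uqcrq was the 1 of 72 members called higher in each of the 11 classes (0.163% of 1844 genes; the others were Lars2 and Btaf1), and 0 were lower (1.03%).

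Uqcrq lies at chr11:53427922-53430831 on the minus strand (GRCm38), 10.1 Mb from Mir146 and 30.1 Mb from Ccl5 on the same chromosome. The 3 other genes that started within 1 Mb and could be tested in all 11 classes moved down in miR146-/- over treated WT (chosen by position after Uqcrq was seen): Hspa4 by -0.39, Aff4 by -0.61 and Irf1 by -0.37. Other members on chromosome 11 were Uqcr10, Atp5g1 and Atp5h, with median ratios of 0.14, -0.14 and 0.02. The handling-response list split the libraries the same way but downward, with a median log2 ratio of -0.81 in miR146-/- over treated WT and -0.89 in DKO over young WT. In the 4 classes of the first comparison 0 were higher and 75 lower of 84 tested, beside 8.06 and 9.55% of all gene values. The list was chosen after values were seen, so its count is a description only. The part of this list in the Uqcrq difference was not tested.

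Ndufs6, a zinc-binding subunit of complex I, had a weaker form of the split. It stood at 59.2, 70.3, 97.5 and 91.1 CPM in NK cells, 44.6, 48.3, 69.9 and 67.6 CPM in B cells and 76.3, 103.7, 120.2 and 105 CPM in CD8 PD-1+ cells. Both deficient libraries were above both WT libraries, by a clear gap in NK and B cells and by little in CD8 PD-1+ cells. Its median ratio over the 11 classes was 0.42 for miR146-/- over treated WT and 0.46 for DKO over young WT, with 11 of 11 classes above 0 in each. Ndufs6 and Atp5k are shown as the members with a promoter entry that moved across classes, at chr13:73328433-73328732 and chr5:108434350-108434649 (GRCm38.p6, minus strand), with capitals as above. Ndufs6 holds NRF1 and YY1 letters, and Atp5k holds NRF1, ETS and ERR letters.
Ndufs6: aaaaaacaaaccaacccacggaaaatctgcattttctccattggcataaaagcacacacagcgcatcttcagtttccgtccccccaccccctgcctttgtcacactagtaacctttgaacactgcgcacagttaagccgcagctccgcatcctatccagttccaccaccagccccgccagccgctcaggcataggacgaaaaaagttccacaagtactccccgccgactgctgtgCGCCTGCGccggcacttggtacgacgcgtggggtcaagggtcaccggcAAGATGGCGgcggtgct
Atp5k: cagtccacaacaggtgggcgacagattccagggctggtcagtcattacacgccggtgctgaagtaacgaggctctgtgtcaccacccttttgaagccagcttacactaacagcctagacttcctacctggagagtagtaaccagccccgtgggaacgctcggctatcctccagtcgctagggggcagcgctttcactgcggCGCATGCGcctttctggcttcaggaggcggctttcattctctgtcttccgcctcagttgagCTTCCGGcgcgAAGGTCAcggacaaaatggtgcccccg

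**Figure D5:**
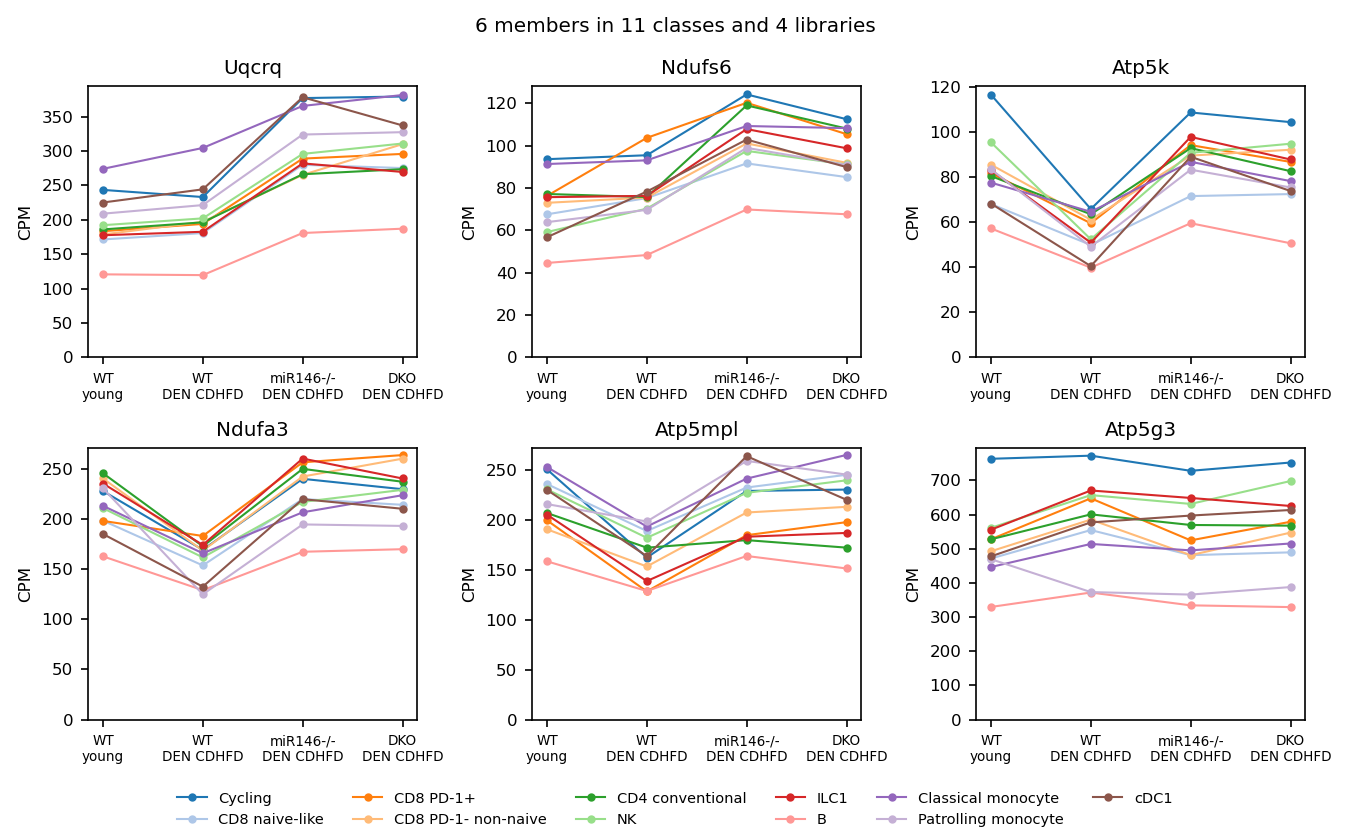
CPM (vertical axes, from 0) of 6 members in the 4 libraries (horizontal axes); each line is 1 of 11 classes. Uqcrq and Ndufs6 are high in miR146-/- and DKO, Atp5k, Ndufa3 and Atp5mpl are low in treated WT, and Atp5g3 keeps the order of its highest and lowest class.

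Setting DKO beside young WT leaves out the treated WT library, with genotype, age, DEN and diet all different. The summed level was higher in 11 of 11 classes, by a median of 0.14 (0.05 to 0.22). Complex III had the largest median of the 5 (0.21), followed by IV (0.16), I (0.13), V (0.11) and II (0.06). The complex III sum includes Uqcrq. Its median member stood at 0.21 in CD8 PD-1+ cells, 0.18 in NK cells, 0.08 in B cells and 0.19 in classical monocytes. After Uqcrq and Ndufs6 came Ndufa8 (0.29), Cox6b1 (0.26) and Uqcrh (0.23). Atp5k had 0.04 in this pair, and Atp5mpl -0.01, so both were near level here. Of the short genes outside the set, Rpl38 (-0.02) and Rps29 (-0.07) were near level too, while mt-Atp8 was lower (-0.69).

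DKO over miR146-/- asks what loss of Ccl5 adds in deficient mice under the same treatment. The summed level changed by a median log2 ratio of 0.02, from -0.07 in B cells to 0.08 in CD8 PD-1- non-naive cells, and was above 0 in 9 of 11 classes. In B cells without Siglech the levels were 1.379% in miR146-/- and 1.347% in DKO, a smaller fall, and cDC1 (-0.06) would then be the lowest class. Ccl5 itself takes up to 3.95% of the UMIs of a class in miR146-/- and is nearly absent in DKO, which raises the share of other genes. With Ccl5 out of the denominator the median was -0.01 and 5 of 11 classes were above 0. With mitochondrial and cytosolic ribosomal protein genes out as well, it was 0.03 and 8 of 11 classes were above 0. By complex, it was 0.02 for I, II and V, 0.08 for III and 0.03 for IV. No member was called in CD8 PD-1+ cells (0 of 74 either way; 3.35 and 3.03% of genes higher and lower), in NK cells (0 of 75; 2.05 and 1.57%) or in classical monocytes (0 of 74; 1.25 and 1.84%). In B cells 0 of 74 were higher (3.47%) and 1 lower (8.84%), the Cox6a2 value that lies in Siglech-positive cells. B cells also shifted as a whole, with a median of -0.14 over all genes and -0.06 over members, and TMM factors of 1.05 for miR146-/- and 0.948 for DKO.

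In these 4 classes the largest member changes were under 1.3-fold apart from Cox6a2. In CD8 PD-1+ cells Ndufa9 (0.25), Uqcrh (581, 599, 631 and 737 CPM; 0.22) and Sdhb (0.21) rose most, and Ndufs6 (-0.19), Ndufb2 (-0.18) and Ndufs8 (-0.15) fell most. NK cells had Ndufb8 (0.25), Ndufb11 (0.25) and Ndufb9 (0.22) on top and Ndufa10 (-0.18), Ndufc1 (-0.18) and Atp5f1 (-0.13) at the bottom. B cells had Ndufb9 (0.15), Ndufb11 (0.13) and Ndufa1 (0.08) on top, and Sdha, with 106, 112, 124 and 96.9 CPM (-0.35), and Ndufs5 (-0.27) after Cox6a2. Classical monocytes had Uqcr10 (0.18), Ndufb4 (0.17) and Ndufs7 (0.17) on top and Atp5k (-0.15), Ndufb3 (-0.12) and Ndufv3 (-0.06) at the bottom. Uqcrh and Cox7a2l were above 0 in 11 of 11 classes, with medians of 0.16 and 0.15. Against each of the 11 classes at once, 0 of 72 members were called in either direction, beside 0% of 1765 genes both ways.

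For the earlier comparisons the same count gave 0 of 70 members either way in treated over young WT, beside 0% of 1870 genes higher and 0.267% lower. In miR146-/- over treated WT 0 of 72 members were lower, beside 1.03% of 1841 genes; those 19 genes included Fos, Jun and Hspa1a. Summed over the 11 classes, member calls numbered 24 higher and 31 lower of 814 in treated over young WT, beside 8.79 and 9.69% of the values of all genes. In miR146-/- over treated WT they were 81 and 9 of 817, beside 8.39 and 9.95%, and in DKO over miR146-/- 1 and 3 of 816, beside 2.99 and 3.05%. A gene counts here once for each class, so these are not independent values.

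Other genes of the pathway are given by list, as median log2 ratios over the 11 classes for treated over young WT, miR146-/- over treated WT and DKO over miR146-/-, in that order. As background for the counts over the 4 classes, 8.63% of 13921 values of all genes were higher and 9.65% lower in treated over young WT, and 8.06% of 13773 were higher and 9.55% lower in miR146-/- over treated WT. In DKO over miR146-/- 2.53% of 13355 were higher and 3.75% lower. The 13 mitochondrially encoded subunits had 0.16, 0.00 and -0.08, with 5 higher and 12 lower of 47 tested in treated WT, 5 higher and 0 lower of 45 in miR146-/- and 0 higher and 1 lower of 45 in DKO. In CD8 PD-1+ cells of treated WT, 8 of 12 of them were lower than in young WT, the opposite of the median class. Of 47 assembly factors few were abundant enough to test, and the list's ratios were 0.01, 0.11 and -0.01, with 6 higher and 1 lower of 37 tested over the 4 classes in miR146-/-. The 13 coenzyme Q genes, which make the electron carrier between complexes, had 0.07, -0.21 and -0.03. In miR146-/- over treated WT 0 of 11 classes were above 0, and 4 of the 5 values tested in the 4 classes were called lower. Those values come from 1 tested gene each in CD8 PD-1+, NK and classical monocyte cells and 2 in B cells, so they do not describe all 13. The 16 regulators of mitochondrial biogenesis had -0.00, -0.09 and -0.04, with 1 higher and 3 lower of 9 in miR146-/-.

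Glycolysis moved more than the members, with 0.22, 0.09 and -0.12, with 7 higher and 2 lower of 45 tested in treated WT. The tricarboxylic acid cycle was level (0.02, 0.01 and -0.00), with 1 higher and 3 lower of 34 in treated WT. For mitochondrial ribosomal proteins the ratios were 0.09, 0.03 and 0.01, with 10 higher and 1 lower of 136 in treated WT. The 5 subunits that the symbol rule misses had 0.09, -0.12 and 0.03, with 0 higher and 1 lower of 20 in miR146-/-. Cytosolic ribosomal proteins, many of them short, had -0.06, 0.03 and 0.10, with 13 higher and 39 lower of 336 in treated WT and 35 higher and 2 lower of 335 in miR146-/-.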

How the data were processed

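The deposited matrices hold the authors' raw UMI count for each gene and cell, made with Cell Ranger 7.0.1 (by the matrix headers; the paper names another version) on mm10. The deposit does not tell if reads in introns add to the counts. Sums, gates, ratios and figures used Python 3.11.15, numpy 2.4.6, scipy 1.17.1, pandas 2.3.3 and matplotlib 3.10.9; TMM factors used R 4.3.3 with edgeR 4.0.16. Transcript lengths are from GENCODE mouse M21, and promoters from RefSeq. Ratios add 0.5 counts to each library before scaling. The members, gates and gene lists were chosen with earlier results of these data known.

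Genes are named by rule: the highest and lowest of each complex, the isoform pairs, the 5 with the widest range over classes (read over the 11 larger classes), and the 3 largest rises and falls in CD8 PD-1+, NK, B and classical monocyte cells for each of 3 comparisons. Chosen after values were seen were Uqcrq's neighbours, Ndufs6 across classes, the members of the young WT and DKO pair, the short non-member genes, Fos, Jun and Hspa1a, the Siglech-based split, and the lists of handling-response genes and of pDC markers. Alternatives tried were other denominators, cell filters, thinning to 2000 UMIs, TMM, a prior of 5 counts, 10 CPM and 1.5-fold.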

Additional observations from a re-analysis of the deposited data

How the results depend on the processing

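With 1 library a group, no spread between animals enters any value, and depth limits members under about 50 CPM and classes under 50 cells. Class levels were recomputed as 308 values, of which 102 stayed within the counting interval of the reported value. Of 74 other recomputed values, 47 did not move beyond it, 25 moved and 2 reversed. The causes of these moves were not tested unless the setting itself shows them.

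The ratio of the highest to the lowest class, 1.55 as reported, was 1.44 with mitochondrial, cytosolic ribosomal protein and Ccl5 genes out of the denominator, 1.57 without the 5 highest members, 1.498 as a mean over cells, 1.48 after thinning, 1.57 with no cell filter, and 1.38 with dividing cells kept in their lineage. It was 1.57 for B cells without Siglech, a setting chosen after seeing the data.

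For treated over young WT, the median summed ratio was 0.0894 with members of at least 600 bases only. For miR146-/- over treated WT it was 0.0597 with no cell filter, 0.0258 with members of at least 600 bases and 0.0430 as a median over members. For DKO over miR146-/- it was 0.0401 as a mean over cells, 0.0466 after thinning, 0.0514 with dividing cells kept in their lineage and 0.0373 with TMM. It reversed to -0.00834 without Ccl5 and to -0.00610 without Ccl5 and the handling-response genes. It stayed above 0, at 0.0281, with mitochondrial, cytosolic ribosomal protein and Ccl5 genes out of the denominator. The settings on length, on Ccl5 alone and on handling-response genes were chosen after seeing the data.

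Member calls in the 4 classes for treated over young WT went from 8 higher to 15 with TMM, to 1 higher and 2 lower at 1.5-fold, and to 5 higher and 1 lower with at least 600 bases. For miR146-/- over treated WT they went from 21 higher and 2 lower to 1 lower with TMM, to 4 higher and 1 lower at 1.5-fold, and to 4 higher with at least 600 bases. For DKO over miR146-/- there was 1 higher at 10 CPM.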
